A study of Mus musculus with 6 samples.

Results

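The naive state markers and LIF-STAT3 response genes Zfp42, Prdm14, Tcl1, Dppa3, Fbxo15, Fgf4, Stat3 and Socs3 were measured by RNA-seq in mouse embryonic stem (ES) cells of 3 Thap1 genotypes. They were chosen by symbol, with earlier results of these data known, and all 8 were found among the 19713 genes of the deposited table. All 8 passed the filter on low values, as did 15287 genes in all. THAP1 is a zinc finger transcription factor, and mutations of its gene cause an inherited dystonia. The genotypes were wild type (WT), THAP1 C54Y on both alleles, a missense change (C54Y), and THAP1 -/-, in which exon 2 is deleted (KO). Each was represented by 2 libraries, numbered replicate 1 and replicate 2. The lines were derived from blastocysts of C57Bl/6 mice and kept on irradiated fibroblasts in 15% serum plus 1000 units/ml of LIF, so every group received the cytokine whose response genes are described here. The labels do not say whether the mutant cells of a genotype were a single clone, nor whether its 2 libraries came from separate cultures. The p-values therefore measure only the spread among these libraries. In the main fit, that spread is what remains once the difference between replicate numbers is removed.

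Mouse embryonic stem cells cultured with serum and LIF move between a naive state, which resembles the inner cell mass, and states closer to the epiblast after implantation. LIF binds a receptor made of LIFR and gp130 (the product of Il6st), JAK kinases then phosphorylate STAT3, and STAT3 switches on genes that keep cells naive, together with its own inhibitor gene Socs3. FGF4, made by the cells themselves, acts through ERK in the other direction and prepares cells to leave the naive state. Zfp42, Prdm14, Tcl1, Dppa3 and Fbxo15 are widely used marks of naive or undifferentiated cells.

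Zfp42 and Tcl1 had the largest differences from WT among the 8 genes in both mutants, and Socs3 is the classical STAT3 target, so the sequences around their start sites are shown first. RefSeq (GRCm38.p6) gave a start region for 5 of the 8 genes: Zfp42, Tcl1, Fgf4, Stat3 and Socs3. Each holds 300 bases, most of them before the start site and the rest after it, written on the strand of the gene. Capitals mark matches, on either strand, to the octamer ATTTGCAT, which POU factors such as OCT4 bind, to the STAT motif TTCNNNGAA, or to the THAP1 motif TNNGGGCA.
Zfp42, chr8:43306960-43307259, minus strand: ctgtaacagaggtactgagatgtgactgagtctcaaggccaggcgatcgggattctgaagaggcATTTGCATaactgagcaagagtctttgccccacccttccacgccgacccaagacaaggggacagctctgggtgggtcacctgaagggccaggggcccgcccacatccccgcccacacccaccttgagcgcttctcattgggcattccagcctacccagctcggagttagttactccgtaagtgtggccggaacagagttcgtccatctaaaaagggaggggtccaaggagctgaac
Tcl1, chr12:105222688-105222987, minus strand: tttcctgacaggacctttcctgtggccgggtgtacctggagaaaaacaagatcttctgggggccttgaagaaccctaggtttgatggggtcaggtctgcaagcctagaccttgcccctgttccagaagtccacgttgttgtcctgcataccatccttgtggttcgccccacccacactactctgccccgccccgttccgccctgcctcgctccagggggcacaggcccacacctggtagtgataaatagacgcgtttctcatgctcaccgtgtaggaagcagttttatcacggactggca
Socs3, chr11:117969317-117969616, minus strand: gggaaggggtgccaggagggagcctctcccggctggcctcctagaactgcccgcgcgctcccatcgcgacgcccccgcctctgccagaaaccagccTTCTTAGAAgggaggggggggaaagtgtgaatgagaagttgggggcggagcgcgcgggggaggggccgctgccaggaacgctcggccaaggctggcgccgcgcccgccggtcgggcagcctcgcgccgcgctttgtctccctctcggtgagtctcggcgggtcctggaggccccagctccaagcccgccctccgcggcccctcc
The Zfp42 region held 1 octamer, which began 186 bases before the start site. An octamer was present in 1.74% of all 32851 start regions of this length. The Socs3 region held 1 STAT motif, beginning 154 bases before the start site, and 8.3% of all regions held one. The Tcl1 region matched none of the 3 motifs. The THAP1 motif was found in 13.9% of all regions and, among these 5 genes, only in that of Stat3, where it began 124 bases before the start site on the opposite strand. A match is a string of letters and does not show that a factor binds there.

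Library depth ranged from 31774656 to 46772996 reads, and single members had between 251 reads (Prdm14, WT replicate 2) and 19176 reads (Zfp42, KO replicate 1). Values are normalized counts, that is reads divided by 1 size factor per library, and log2 fold changes were computed from log2(normalized count + 2). Replicate number was a block in the model because the genotypes were to be compared within each number. Libraries with the same number also deviated together, and differences are given within each number as well. The libraries carried the marks of embryonic stem cells, with Pou5f1, the gene of OCT4, at 32384 to 122969 normalized counts. Thap1 itself was counted at 432.5 (WT), 2253 (C54Y) and 1975 (KO) in replicate 1, and at 701.3, 2533 and 1687 in replicate 2. These whole-gene counts check neither allele, since they do not resolve exon 2 or a single base.

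**Figure D1:**
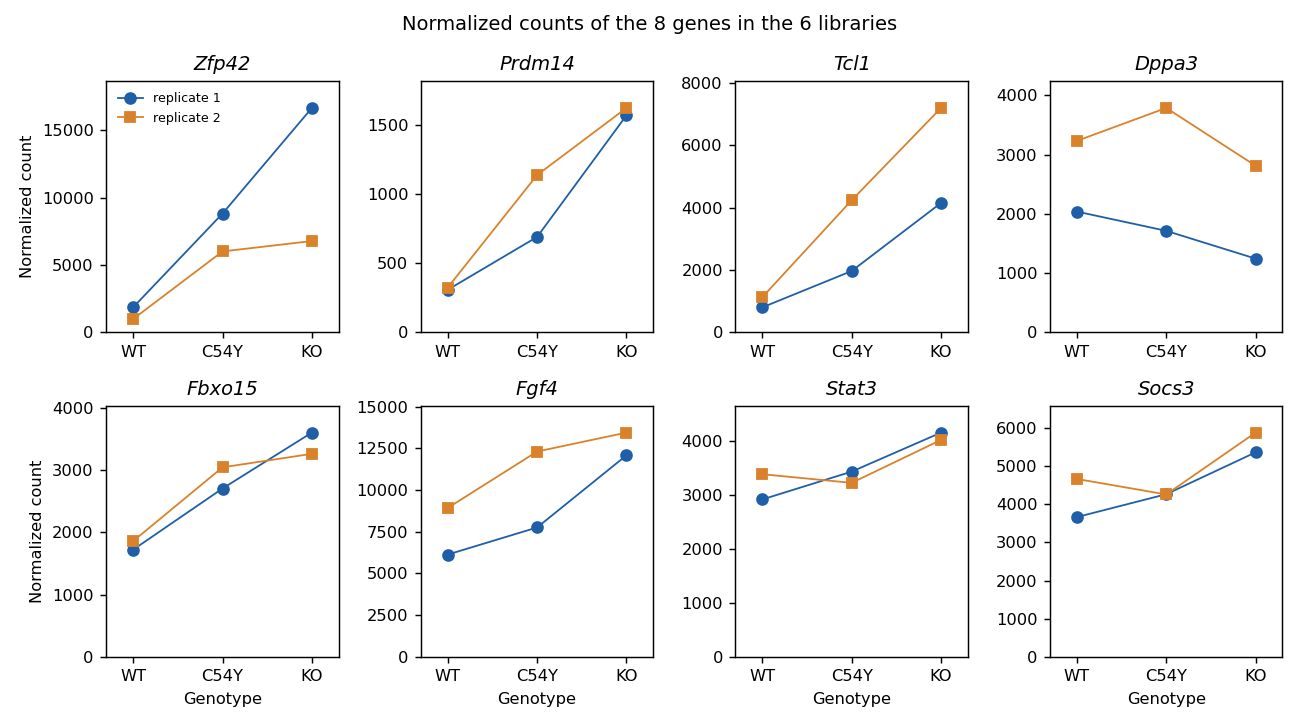
Normalized counts (vertical axes, linear, starting at 0) of the 8 genes by genotype (horizontal axes), with 1 point per library and lines joining libraries of the same replicate number. Zfp42, Prdm14, Tcl1, Fbxo15 and Fgf4 stepped up from WT to C54Y to KO within both replicate numbers, while Dppa3 was lowest in KO within both.

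In KO cells 5 of the 8 genes rose against WT and 0 fell (limma with the replicate block, Benjamini-Hochberg adjusted p under 0.05). Of all 15287 tested genes, 8.9% rose and 7.41% fell (16.3% in either direction). Zfp42, Tcl1 and Prdm14 changed by 5-fold or more, Fbxo15 and Fgf4 by less than 2-fold, and Stat3, Socs3 and Dppa3 were not called. All 8 had an unadjusted p under 0.05, as did 31.1% of all genes. In C54Y cells 3 genes rose, Zfp42, Tcl1 and Prdm14, and 0 fell, against 0.962% and 0.399% of all genes (1.36% in either direction). An unadjusted p under 0.05 was reached by 5 of the 8 in C54Y and by 12.3% of all genes. Between KO and C54Y limma called 0 of the 8 genes, against 0.19% of all genes (0.0458% higher in KO and 0.144% lower). For the same comparison edgeR called 0 of the 8, DESeq2 2 and limma-voom 1. Over all 15287 genes edgeR called 29, DESeq2 453 and limma-voom 297. With limma 6 of the 8 had an unadjusted p under 0.05, against 15.4% of all genes. The median log2 fold change of the 8 genes was 0.86 in KO and 0.54 in C54Y, beside 0.03 and -0.002 over all tested genes. Both mutants were compared with the same WT libraries. Without the replicate block limma called 0 members and 0 of all genes in each of the 3 comparisons. At an unadjusted p under 0.05 that fit had 4 members in KO (6.86% of all genes), 3 in C54Y (1.65%) and 0 between the mutants (1.35%).

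Zfp42 encodes REX1, a zinc finger protein related to YY1 whose promoter drives the standard reporters of the naive state. In replicate 1 it had 1843 normalized counts in WT, 8809 in C54Y and 16657 in KO. In replicate 2 the same genotypes had 974.1, 5996 and 6769. Both libraries of each mutant were above both WT libraries, whereas KO and C54Y libraries overlapped. On the log2 scale Zfp42 rose by 2.98 ± 0.18 in KO (SE, limma adjusted p = 0.000187). The C54Y rise was 2.44 ± 0.18 (limma adjusted p = 0.000877). KO exceeded C54Y by 1.89-fold in replicate 1 and 1.13-fold in replicate 2, and the log2 difference of 0.55 (95% interval 0.14 to 0.96, adjusted p = 0.209) was not called. It was called without WT replicate 1 (0.0326) or KO replicate 2 (0.83, adjusted p = 0.000589), and stood at 0.82 without C54Y replicate 2 and at 0.27 without C54Y replicate 1 or KO replicate 1.

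Prdm14 encodes a PR-domain DNA-binding protein that represses FGF receptor signalling and the de novo DNA methyltransferase genes. It was the most weakly expressed member in WT, with 307.0 normalized counts in replicate 1 and 323.0 in replicate 2. C54Y had 689.5 and 1138, and KO 1571 and 1624. The KO libraries were close to each other, the C54Y libraries were spread, and none of the 3 genotypes overlapped. Prdm14 rose by 2.33 ± 0.21 in KO (adjusted p = 0.000453) and by 1.49 ± 0.21 in C54Y (adjusted p = 0.0129). The C54Y call was lost without C54Y replicate 2 (1.16, adjusted p = 0.176). KO exceeded C54Y by 0.85 (95% interval 0.37 to 1.33, adjusted p = 0.127), with 2.28-fold in replicate 1 and 1.43-fold in replicate 2. DESeq2 called that difference (0.0164), as did limma without WT replicate 1 (0.00976), WT replicate 2 (0.0283) or KO replicate 2 (0.00305), while it stood at 0.52 without C54Y replicate 1.

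Tcl1 encodes a small cofactor of the kinase AKT, which promotes self-renewal and growth. Replicate 1 gave 795.5 normalized counts in WT, 1964 in C54Y and 4151 in KO, and replicate 2 gave 1122, 4237 and 7203. Every mutant library exceeded both WT libraries, but C54Y replicate 2 was just above KO replicate 1. Tcl1 rose by 2.53 ± 0.17 in KO (adjusted p = 0.000195). Its rise in C54Y was 1.61 ± 0.17 (adjusted p = 0.00379). Of the 8 genes Tcl1 had the smallest p between the mutants, where KO was higher by 0.92 (95% interval 0.53 to 1.31, adjusted p = 0.0692). That difference was called by DESeq2 (adjusted p = 0.000839) and limma-voom (adjusted p = 0.033), both with the block, and not by edgeR (adjusted p = 0.074). With limma it was called without either WT library or either KO library (adjusted p from 0.000114 to 0.00784), and not without either C54Y library (0.0684 and 0.729).

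Fbxo15 encodes an F-box protein whose locus, a target of OCT4 and SOX2, carried an early reporter of reprogramming. WT had 1723 normalized counts in replicate 1 and 1861 in replicate 2, C54Y 2707 and 3048, and KO 3607 and 3265. The 3 genotypes did not overlap, and the 2 libraries of each were near each other. Fbxo15 rose in KO by 0.94 ± 0.15 (adjusted p = 0.00473). Its C54Y value of 0.68 (95% interval 0.34 to 1.02, adjusted p = 0.073) was not called by limma with the block, although DESeq2 with the block called it (adjusted p = 0.0144). Without KO replicate 1 (3.06e-05) or KO replicate 2 (0.000146) limma called it as well.

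Fgf4 encodes the growth factor through which embryonic stem cells activate ERK. Its counts were 6133 in WT, 7759 in C54Y and 12090 in KO in replicate 1, and 8929, 12315 and 13453 in replicate 2. Both KO libraries exceeded both WT libraries, while C54Y replicate 1 lay below WT replicate 2. Fgf4 rose in KO by 0.78 ± 0.15 (adjusted p = 0.01), with 1.97-fold in replicate 1 and 1.51-fold in replicate 2. The C54Y value was 0.40 (95% interval 0.06 to 0.74, adjusted p = 0.31), and it was called without KO replicate 1 (0.00724) or KO replicate 2 (0.0123). Without C54Y replicate 2 it stood at 0.24.

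Dppa3 encodes STELLA, which protects the maternal genome of the zygote from demethylation and marks early germ cells. It was the only member whose value in KO lay below WT, at 2038 normalized counts in WT, 1712 in C54Y and 1242 in KO in replicate 1, and 3232, 3789 and 2812 in replicate 2. The libraries of the 3 genotypes overlapped, since replicate 2 exceeded replicate 1 in each. KO stood at -0.46 against WT (95% interval -0.84 to -0.07, adjusted p = 0.104) and at -0.45 against C54Y (adjusted p = 0.264), and C54Y at -0.01 against WT (95% interval -0.40 to 0.38, adjusted p = 0.99). Without KO replicate 2 the difference between KO and WT was called (-0.59, adjusted p = 0.00862), as was that between KO and C54Y (-0.58, adjusted p = 0.0169). Without WT replicate 1 the difference between KO and WT stood at -0.21 (adjusted p = 0.715), and without WT replicate 2 at -0.70 (adjusted p = 0.0812).

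Stat3, the signal transducer of LIF, was counted at 2920 in WT, 3437 in C54Y and 4161 in KO in replicate 1, and at 3388, 3228 and 4025 in replicate 2. Socs3, which encodes the inhibitor induced by STAT3, had 3665, 4266 and 5365 in replicate 1 and 4666, 4260 and 5883 in replicate 2. For both genes the KO libraries lay above all WT and C54Y libraries, and C54Y lay above WT in replicate 1 and below it in replicate 2. In KO the values were 0.38 for Stat3 (95% interval 0.05 to 0.71, adjusted p = 0.113) and 0.44 for Socs3 (95% interval 0.12 to 0.77, adjusted p = 0.0708). Neither was called, although Stat3 was called without KO replicate 2 (0.0234), and Socs3 without KO replicate 1 (0.0278) or KO replicate 2 (0.019). Without WT replicate 1 the values were lower, 0.24 for Stat3 (adjusted p = 0.639) and 0.30 for Socs3 (adjusted p = 0.49). In C54Y the values were 0.08 for Stat3 (95% interval -0.25 to 0.41, adjusted p = 0.898) and 0.04 for Socs3 (95% interval -0.28 to 0.37, adjusted p = 0.954).

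**Figure D2:**
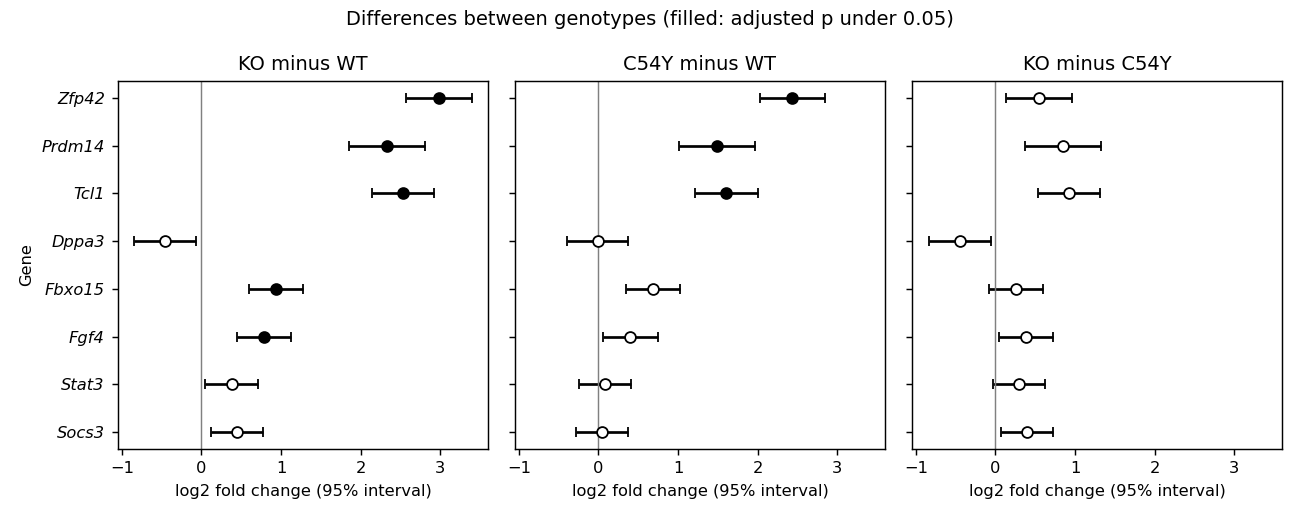
Log2 fold changes (horizontal axes) of the 8 genes (vertical axis) for KO against WT, C54Y against WT and KO against C54Y, from limma with the replicate block. Bars are 95% intervals and filled points had an adjusted p under 0.05: 5 genes in KO, 3 in C54Y and 0 between the mutants.

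Within replicate numbers, 7 of the 8 genes were higher in KO than in WT in both numbers, and 1, Dppa3, was lower in both. Over all tested genes 36.1% were higher and 29.5% lower in both. In C54Y 5 genes were higher in both numbers, against 33.5% of all genes (32.6% were lower), and Dppa3, Stat3 and Socs3 changed direction between the numbers. KO libraries did not overlap WT libraries for 7 genes, each higher in KO, against 13.6% of all genes (27.2% in either direction). C54Y libraries did not overlap WT libraries for 4 genes, each higher in C54Y, against 9.3% of all genes (18% in either direction). KO and C54Y libraries did not overlap for Prdm14, Fbxo15, Stat3 and Socs3, each higher in KO, against 8.64% of all genes (17.5% in either direction). Within both numbers 7 genes were higher in KO than in C54Y (33.3% of all genes), and Dppa3 was lower (25.7%). The order WT below C54Y below KO held in both numbers for 5 genes, Zfp42, Prdm14, Tcl1, Fbxo15 and Fgf4, and for 14.3% of all tested genes.

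**Figure D3:**
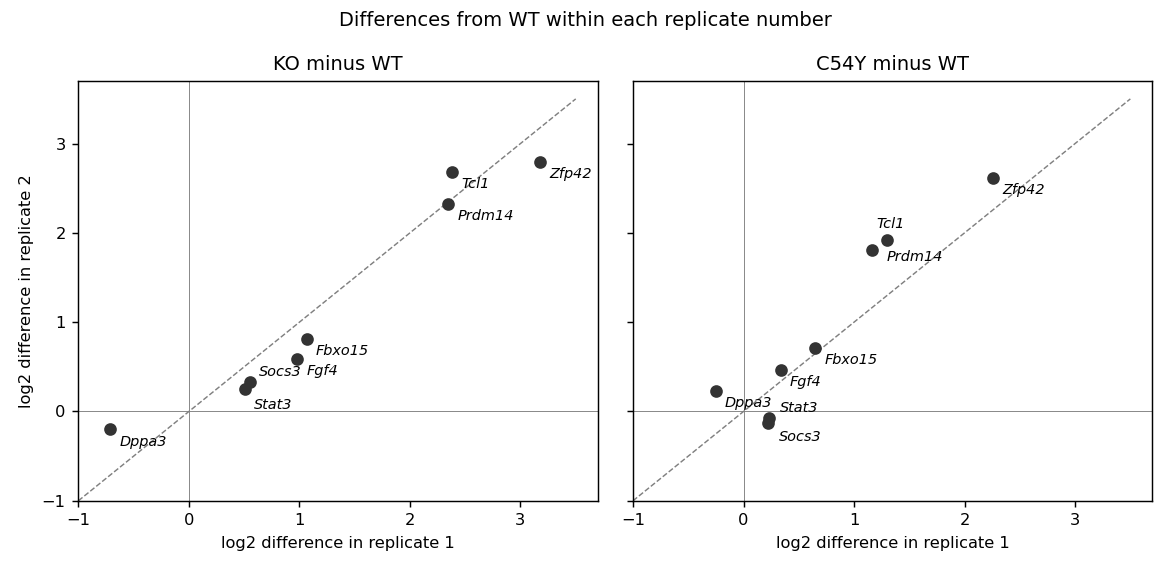
Log2 difference from WT in replicate 1 (horizontal axes) and replicate 2 (vertical axes) for each of the 8 genes, in KO (left) and C54Y (right), with 1 point per gene. The dashed line marks equal differences. In C54Y, Stat3 and Socs3 were above 0 in replicate 1 and below 0 in replicate 2, and Dppa3 the reverse.

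Several members also differed between the replicate numbers themselves. Zfp42 was lower in replicate 2 in all 3 genotypes, by 0.92 in WT, 0.56 in C54Y and 1.30 in KO on the log2 scale (-0.92 ± 0.15 over the genotypes, adjusted p = 0.000528). Tcl1 (0.80 ± 0.14, adjusted p = 0.000954) and Dppa3 (1.00 ± 0.14, adjusted p = 0.000224) were higher in replicate 2, and so was Fgf4 (0.45 ± 0.12, adjusted p = 0.00981). The Fgf4 call was lost without C54Y replicate 1 (0.1175) or C54Y replicate 2 (0.139). Prdm14, Fbxo15, Stat3 and Socs3 were not called (adjusted p from 0.18 to 0.863). Prdm14 (0.28) was called without KO replicate 1 (0.40, adjusted p = 0.0253) or KO replicate 2 (0.40, adjusted p = 0.0356), and stood at 0.061 without either C54Y library. With 3 genes higher and 1 lower in replicate 2, 4 of the 8 were called, against 32% and 32.8% of all tested genes (64.9% in either direction).

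Levels of different genes were compared as RPKM, that is reads scaled to exon length and library size, with exon lengths from GENCODE M21. In WT the order was Dppa3 (80.1 ± 9.8, SD, n = 2), Fgf4 (64.3 ± 4.0), Socs3 (39.7 ± 1.3), Zfp42 (21.9 ± 13.4), Fbxo15 (14.9 ± 2.2), Tcl1 (14.2 ± 0.56), Stat3 (9.18 ± 0.90) and Prdm14 (3.43 ± 0.57). Zfp42, Fbxo15 and Tcl1 did not differ beyond their spread. In KO Zfp42 ranked first (165 ± 121), but its libraries lay at 251 and 80.1 and overlapped the level of Fgf4 (100.5 ± 9.5) and Tcl1 (75.3 ± 16.4). Dppa3 followed at 54.8 ± 21.7 and Socs3 at 48.9 ± 5.1, and neighbours from Tcl1 to Socs3 in this order did not differ beyond their spread. Fbxo15 (26.0 ± 6.2), Prdm14 (15.7 ± 2.3) and Stat3 (10.9 ± 2.1) were the lowest. In C54Y the order was Zfp42 (112 ± 50), Fgf4 (84.9 ± 12.0), Dppa3 (81.6 ± 30.1), Tcl1 (44.6 ± 15.7), Socs3 (41.0 ± 7.6), Fbxo15 (23.7 ± 2.4), Stat3 (9.78 ± 2.22) and Prdm14 (9.60 ± 1.62), and only Fbxo15 stood apart from both of its neighbours in that order.

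Upstream of Stat3, the receptor and kinase genes showed no common direction. Of 16 LIF receptor, JAK and STAT genes 3 rose and 1 fell in KO (median 0.05), and 1 rose and 0 fell in C54Y (median 0.14). The shares of all genes to set beside these and the following lists are 8.9% up and 7.41% down in KO, and 0.962% up and 0.399% down in C54Y. Lifr stood at 0.14 in KO (adjusted p = 0.693), Jak1 at -0.06 (adjusted p = 0.817) and Il6st at 0.49 (adjusted p = 0.0524). In C54Y they stood at 0.21, -0.14 and 0.38 (adjusted p from 0.334 to 0.828). Jak3, which encodes a kinase best known from lymphocytes, rose by 1.42 ± 0.23 in KO (adjusted p = 0.00489). Its rise in C54Y was 1.40 ± 0.23 (adjusted p = 0.0231), a call not made without C54Y replicate 1 (0.0919). Cntfr, the receptor gene of a cytokine related to LIF, fell in KO (-1.65 ± 0.31, adjusted p = 0.00945). Il6ra (1.57, adjusted p = 0.0355) was called up but not without WT replicate 2 (0.247). Stat6 (0.62, adjusted p = 0.0278) was called up but not without either WT library (0.168 and 0.188 without replicate 1 and 2) or either C54Y library (0.0715 and 0.0773).

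Among 15 other brakes on JAK-STAT signalling 0 rose and 1 fell in each mutant. That gene was Socs2 in both, and its value was -0.73 (adjusted p = 0.0219) in the knockout and -0.97 (adjusted p = 0.0335) in the missense line. In KO it was not called when WT replicate 2 was left out (0.273), nor in C54Y without C54Y replicate 1 (0.0937), C54Y replicate 2 (0.324) or WT replicate 2 (0.28). Of 13 targets of STAT3 in embryonic stem cells 3 rose in KO and 0 fell, with a median of -0.13. The 3 were the naive transcription factor genes Klf4 (1.41 ± 0.17, adjusted p = 0.00158), Tfcp2l1 (1.16 ± 0.16, adjusted p = 0.00237) and Klf5 (0.70 ± 0.15, adjusted p = 0.0141), and Klf5 was not called without WT replicate 1 (0.081) or WT replicate 2 (0.0862). Of the 13, 5 had a KO value above 0. Myc (-0.61, adjusted p = 0.113), Pim1 (-0.39, adjusted p = 0.121) and Gbx2 (-0.16, adjusted p = 0.758), other members of that list, were named after their values were seen. Gbx2 was higher in KO than in WT in replicate 1 (954.6 against 671.5) and lower in replicate 2 (1181 against 2087). Bcl3 (902.5 against 728.3, then 2826 against 1614) and Pim3 (7943 against 6922, then 12637 against 8363) were higher in KO in both, and were not called. In C54Y 0 of the 13 targets were called by limma and 0 by edgeR, and 3 by DESeq2, which called 479 of all 15287 genes. An unadjusted p under 0.05 with limma was reached by 5 of the 13, against 12.3% of all genes.

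Other genes of the naive state were called up in KO in 16 of 21 cases and down in 0, against 8.9% and 7.41% of all genes, with a median of 0.86. Esrrb (1.13 ± 0.11, adjusted p = 0.000784), Klf2 (1.502 ± 0.17, adjusted p = 0.00135), Nanog (1.46 ± 0.17, adjusted p = 0.00144) and Nr0b1 (1.19 ± 0.14, adjusted p = 0.00149) had the smallest p. All 4 are transcriptional regulators of self-renewal. In C54Y 1 of the 21 rose, Klf2 (1.11, adjusted p = 0.0201), which was not called in the absence of WT replicate 2 (0.0684) or C54Y replicate 2 (0.0913), and the median was 0.33. In C54Y edgeR called 1 of the 21 and DESeq2 6, where they called 198 and 479 of all 15287 genes. An unadjusted p under 0.05 with limma was reached by 12 of the 21, against 12.3% of all genes. The difference between these 2 lists was not tested. They share Klf4, Klf5, Tfcp2l1 and Gbx2.

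**Figure D4:**
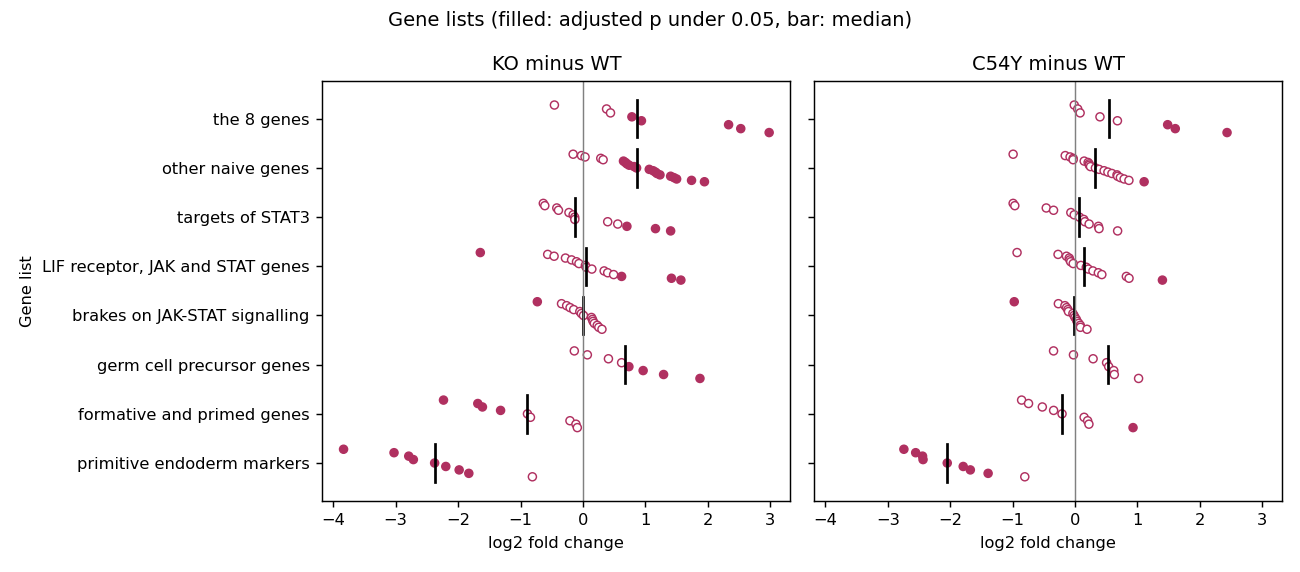
Log2 fold changes (horizontal axes) of single genes in 8 lists (vertical axis), in KO against WT (left) and C54Y against WT (right), from limma with the replicate block. Each point is a gene, filled where its adjusted p was under 0.05, and black bars are list medians, for example 0.86 for the 8 genes and -0.13 for the targets of STAT3 in KO.

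Genes that act with the members were followed as well. PRDM14 represses the de novo methyltransferase genes, and of 14 of its partners and targets 2 rose and 2 fell in KO, where 8.9% and 7.41% of all genes did. Dnmt3l and the FGF receptor genes Fgfr1 and Fgfr2, which are also in that list, were not called in KO. Dnmt3b (-1.32 ± 0.14, adjusted p = 0.000937) and Dnmt3a (-0.93 ± 0.16, adjusted p = 0.0063) fell, and Tet2, which encodes a methylcytosine oxidase, rose (1.26 ± 0.31, adjusted p = 0.028). The Tet2 difference was 3.88-fold in replicate 1 and 1.48-fold in replicate 2, and its log2 value was 0.55 without KO replicate 1 (adjusted p = 0.0144) and 1.97 without KO replicate 2. Uhrf1, whose product guides maintenance methylation and is bound by STELLA, rose by 0.59 (adjusted p = 0.0132), which was not called without WT replicate 1 (0.0619). Dnmt3b was also lower in KO than in C54Y (-0.98, adjusted p = 0.0455), but not without C54Y replicate 1 (0.365). In C54Y 0 of the 14 were called by limma and 0 by edgeR, and 1 by DESeq2, which called 479 of all 15287 genes. An unadjusted p under 0.05 with limma was reached by 4 of the 14, against 12.3% of all genes. Of 15 tested partners of the other members, which include Yy1, Rlim, Akt1 and Skp1a, only Uhrf1 was called in KO. In C54Y 0 were called by limma, edgeR or DESeq2 and 0 had an unadjusted p under 0.05, against 12.3% of all genes.

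Nearby genes were compared because some members lie in clusters. Of the 32 genes that flank the members, up to 2 on each side in RefSeq order, 26 were tested, and 7 rose and 4 fell in KO (median 0.11), beside 8.9% and 7.41% of all genes. Triml2, next to Zfp42 on chromosome 8, rose by 1.48 ± 0.16 in KO (adjusted p = 0.00102). Its rise in C54Y was 1.40 ± 0.16 (adjusted p = 0.00492), a call not made without C54Y replicate 2 (0.0505). Triml1 beyond it rose in KO (1.10 ± 0.21, adjusted p = 0.00973), though not without WT replicate 1 (0.0732). On the other side Fat1 stood at -0.50 (adjusted p = 0.0857). Tunar next to Tcl1, Cndp2 next to Fbxo15 and Fgf3 next to Fgf4 were also among the 7 that rose in KO. Each lost its call in some of the fits with a library left out. Dppa3 lies on chromosome 6 between Gdf3 and Nanog. Nanog rose in KO by 1.46, and Gdf3, a TGF-beta family ligand gene, by 0.65 ± 0.14 (adjusted p = 0.0139), while Dppa3 between them stood at -0.46. The Gdf3 call was lost without WT replicate 2 (0.123). Slc2a3, a glucose transporter gene beyond Nanog, stood at -0.08 (adjusted p = 0.814). Apobec1, on the far side of Gdf3, was among the 4 flanking genes that fell in KO, the same direction as Dppa3, which was itself not called. Its value was -0.91 without either C54Y library, -0.66 without WT replicate 2 and -0.61 without KO replicate 2. It did not pass the threshold in these fits.

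Likeness of pattern was measured as Pearson's r over the 6 libraries, on log2 values centred within replicate number, among 11221 genes that averaged 3 or more CPM (reads scaled to library size). The genes most like Zfp42 were Gm13580, Arl14epl, Slc39a9, a zinc transporter gene, Atp6v1b2, which encodes a subunit of the proton pump, and Xlr5a, an X-linked multicopy gene (r from 0.9976 to 0.9983). Arl14epl rose by 3.11 ± 0.20 in KO and 2.36 ± 0.20 in C54Y, close to the values of Zfp42, while Atp6v1b2 had 0.36 and 0.29. The measure therefore ranks the shape of a pattern and not its size. Those most like Tcl1 included Gpd1l, Prune, the receptor gene Notch4 and the epoxide hydrolase gene Ephx1 (r of at least 0.999). Only 6 libraries enter each r, and they are the same libraries for every gene.

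Summed marker levels of other cell states are given beside the members. Primitive endoderm markers, 9 genes, summed to 132 (WT), 30.9 (C54Y) and 18.2 CPM (KO) in replicate 1 and to 82.6, 24.3 and 13.4 in replicate 2. Of these 8 fell in each mutant (7.41% of all genes fell in KO and 0.399% in C54Y), among them Cubn (-3.84 in KO and -2.43 in C54Y) and Dab2 (-2.79 and -1.79), and none was at 0 in any library. Formative and primed genes, also 9, summed to 504 (WT), 470 (C54Y) and 203 CPM (KO) in replicate 1 and to 776, 557 and 294 in replicate 2, and 4 fell in KO, Pou3f1 (-1.61), Dnmt3b (-1.32), Sfrp2 (-1.69) and Fgf5 (-2.24). In C54Y 0 of them fell and 1 rose, Otx2 (0.93, adjusted p = 0.0382), a call lost without C54Y replicate 1 (0.133), C54Y replicate 2 (0.766) or WT replicate 2 (0.296). Markers of cells resembling the early cleavage embryo, 8 genes with Dux and Zscan4c among them, summed to 0.670 (WT), 2.82 (C54Y) and 10.2 CPM (KO) in replicate 1 and to 0.896, 4.31 and 5.95 in replicate 2. With limma 7 of them were tested, and 6 rose and 0 fell in KO (median 2.99). In C54Y 1 rose, a call lost without C54Y replicate 2. Over all genes 8.9% rose in KO and 0.962% in C54Y. WT counts of these markers were low, for example 0 and 2.57 normalized counts of Dux in replicates 1 and 2. Zscan4d and Usp17la lost their KO call without WT replicate 1 or KO replicate 1. Fibroblast markers, 14 genes of the feeders' cell type, summed to 146 (WT), 140 (C54Y) and 62.3 CPM (KO) in replicate 1 and to 355, 400 and 342 in replicate 2. Of 12 tested fibroblast markers 0 rose and 1 fell in KO, Mmp2 (-1.03), where 1 of the 12 stood above 0. In C54Y 0 of them were called. Lum was at 0 in 5 of the 6 libraries, whereas Col1a1 had 554 to 6794 normalized counts. The part of these cell states in the values of the 8 genes was not tested. In bulk RNA a change in the share of cells cannot be told apart from a change of RNA per cell.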

How the data were processed

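RNA-seq data of 6 libraries, 2 per genotype, were grouped by their titles. The deposited values are a signal per gene: reads normalized by 1 size factor for each library. TopHat2 2.1.0, HTSeq, DESeq2, Trimmomatic and CASAVA, and the build mm9, are named in the submitters' processing notes. The strand setting, annotation and filters are not given in the sources used here. Multiplying by size factors inferred from the values themselves returned whole reads for all values (tolerance 1e-06).

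The limma 3.58.1 fit (R 4.3.3, robust trend) used log2(normalized count + 2) of the 6 libraries, with genotype and replicate number as terms. It took genes that reached 10 normalized counts in 2 or more libraries, and p-values were adjusted by the Benjamini-Hochberg method over them. Adding 2 understates the change of low genes. Replicate number was a block because genotypes were to be compared within each number. The labels do not say what the number marks. Deviations from group means correlated across genes at 0.907 between WT and C54Y, 0.869 between WT and KO, and 0.895 between the mutants. Residual degrees of freedom were 2, or 3 without the block. Alternatives were other pseudocounts, no filter, TMM factors, edgeR 4.0.16, DESeq2 1.42.0 and limma-voom on the recovered reads, no block, and each library left out. The procedure was also run on simulated counts, drawn independently around the means of each replicate number. Such counts hold no spread between clones or cultures, so that run cannot support the calls made here.

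The 8 genes, the gene lists and the naming rule were chosen with earlier results of these data known. The rule named the members, Lifr, Il6st and Jak1 throughout, up to 4 called genes of smallest p per list, genes flanking the members, and the 5 genes most like Zfp42 and Tcl1. Not every gene so named is described. Exon lengths from GENCODE M21 (GRCm38) matched 18705 of 19713 symbols (94.89%), and the authors' gene models may differ. The pseudogenes Zfp42-ps1 and Dppa3-ps could share reads with their parent genes, and Stat3 shares 72 exonic bases with Stat5a on the other strand.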

Additional observations from a re-analysis of the deposited data

How the results depend on the processing

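Direction and call of the 8 genes were recomputed under 8 kinds of change and with each of the 6 libraries left out. With no replicate block the number of members called was 0 in KO against WT and 0 in C54Y against WT, instead of 5 and 3. It was 0 between KO and C54Y both with and without the block. Log2 fold changes were the same in both fits. Between KO and C54Y, DESeq2 called 2 members (Prdm14 and Tcl1) and limma-voom 1 (Tcl1). With single libraries left out the number called ranged from 5 to 8 for KO against WT, from 2 to 5 for C54Y against WT and from 0 to 7 for KO against C54Y. The number was 8 (KO against WT) and 7 (KO against C54Y) without KO replicate 2, and 5 in C54Y without either KO library. Calls over all genes rose too in the same fits, to 4802 and 2781 without KO replicate 2, and to 1758 and 1569 in C54Y without KO replicate 1 and 2. For KO against C54Y the number of members was 3 without WT replicate 1, 2 without WT replicate 2 and 1 without KO replicate 1. A library left alone in its group adds nothing to the residual spread and is assumed to vary like the others. These fits also have fewer residual degrees of freedom than the 2 of the full fit. Their p-values lean more on the spread shared across genes, so a call kept or gained there says little about its firmness. Zfp42, Prdm14, Tcl1, Fbxo15 and Fgf4 stayed called in KO against WT with each library left out, and under each change other than the missing block.

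Signs changed for small values only. With single libraries left out, C54Y against WT ranged from -0.26 to 0.24 for Dppa3, from -0.059 to 0.22 for Stat3 and from -0.10 to 0.18 for Socs3. Between replicate numbers, Fbxo15 went to -0.061 with TMM factors or edgeR and -0.063 with limma-voom, and Stat3 to -0.081 and -0.083. With libraries left out they ranged from -0.016 to 0.14 and from -0.069 to 0.083, and 3 to 5 members were called. The cause of these changes was not tested. TMM factors moved the median of all genes between replicate numbers from 0.015 to -0.089. Over all genes, C54Y against WT had 208 calls with limma and 479 with DESeq2. KO against C54Y had 29 with limma, 453 with DESeq2 and 297 with limma-voom. KO against WT had 2494, and without the block each comparison had 0. With single libraries left out these counts ranged from 72 to 1758, from 9 to 2781 and from 1747 to 4802, in that order.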

Other observations

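Some genes of germ cell precursors, in which Prdm14 and Dppa3 also act, were higher in KO. Of 8 such genes 4 rose and 0 fell, against 8.9% and 7.41% of all genes, with a median of 0.68 beside 0.03 over all genes. They were Prdm1, which encodes a repressor that specifies germ cells (0.96 ± 0.19, adjusted p = 0.0122), the RNA-binding protein gene Dazl (1.88 ± 0.42, adjusted p = 0.019), the transcription factor gene Tfap2c (0.74 ± 0.18, adjusted p = 0.0244) and Nanos3 (1.29 ± 0.35, adjusted p = 0.0388), all from limma. Single libraries decided some of these calls and values. Dazl stood at 1.03 without KO replicate 1 (adjusted p = 0.041). Prdm1 was not called without WT replicate 1 (0.058), Tfap2c without WT replicate 2 (0.291), or Nanos3 without WT replicate 1 (0.164) or KO replicate 2 (0.082). In C54Y 0 of the 8 were called by limma, edgeR or DESeq2. An unadjusted p under 0.05 with limma was reached by 4 of the 8, against 12.3% of all genes. Their C54Y median was 0.52, beside -0.002 over all genes.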
